A study of Homo sapiens with 15 samples.

Results

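The 6 libraries described here come from 2 human cell lines and were taken, by line name, from a series of 15 libraries. The line labelled T53D4 gave 3 of them, and its parent ARPE19, an established line of retinal pigment epithelium (RPE), gave the other 3. T53D4 is labelled as a primed line, transfected with 2 plasmids. The first carries hTERT, the catalytic subunit of telomerase, with p53DD, a dominant negative p53 fragment, and the second carries cyclin D1 with CDK4R24C, a CDK4 mutant that p16 family inhibitors do not bind. ARPE19 carries no plasmid, and neither line is labelled as transformed. Both were grown adherently in serum-containing medium, and each replicate came from its own thawed vial after 2 passages, so p-values cover vials and cultures of 1 line per construct, not separately made lines. The other 9 libraries, from the RasV12, MekDD and AKTmyr lines made on top of the same plasmids, entered the fit to estimate the spread and are otherwise given as levels only. RNA with poly(A) tails was sequenced, and libraries of the same replicate number were compared as pairs.

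These plasmids act on the controls that limit the growth of normal cells. Telomerase adds repeats to chromosome ends. p53 is a transcription factor that switches on inhibitors of the cell cycle, repair enzymes and death receptors, and p53DD binds full-length p53 and blocks it. Cyclin D1 with CDK4 phosphorylates the RB protein, which releases E2F factors to switch on genes of DNA replication. ATF4, a further transcription factor that the results return to, is made when amino acids are scarce or other stress slows translation, and it drives genes of amino acid synthesis and uptake.

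Reads on genes were 30.5, 44.6 and 20.63 M in T53D4 replicates 1, 2 and 3, against 35.24, 39.55 and 24.02 M in ARPE19. Levels below are CPM, a gene's reads scaled to all reads on genes in its library with TMM factors between libraries, so the value of a gene is compared between lines and not with another gene. A difference is a log2 fold change of T53D4 over ARPE19 with its standard error (SE). A gene is called when edgeR's quasi-likelihood test over 13599 genes gives a Benjamini-Hochberg adjusted p under 0.05. With the replicate number as a block, 101 genes were called higher in T53D4 and 131 lower, which is 0.743% and 0.963% of the genes tested (1.71% together). Of these, 25 and 61 differed by 2-fold or more. Without the block, 5 were higher (0.0368%) and 16 lower (0.118%), and all 21 are among the 232. In 34 of the 232, libraries of the lines overlap in CPM. Leaving out ARPE19 replicate 3 gave 112 higher and 126 lower, but only 61 and 90 of these are among the genes reported. Leaving out any other single library gave 3 to 7 higher and 7 to 21 lower. TERT alone was called under all 17 alternatives, while the 50 named genes with a call kept their sign in every one.

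The construct sequences have rows of their own in the count table, and they were examined before anything else. The hTERT construct had 24797, 34556 and 21803 reads in the libraries labelled T53D4, against 8, 5 and 4 in ARPE19. The p53DD construct, a murine sequence, had 2156, 2270 and 1870 reads in T53D4, and ARPE19 had 1, 0 and 0. These rows set every T53D4 library apart from every ARPE19 library. In CPM they stood at 879 ± 147 in T53D4 against 0.176 ± 0.0538 in ARPE19 for hTERT (SD, n = 3; log2 difference 12.24, SE 0.33, edgeR adjusted p = 4.75e-10), and at 70.7 ± 20.1 in T53D4 for p53DD (edgeR adjusted p = 3.47e-08).

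The second plasmid did not show in the same way. Cyclin D1 construct reads came to 174, 111 and 153 CPM in T53D4, against 156, 238 and 185 CPM in ARPE19 (log2 difference -0.40, SE 0.21, edgeR adjusted p = 0.324). CDK4R24C construct reads came to 88.7, 82.6 and 105 CPM in T53D4, against 57.8, 72.8 and 81.6 CPM in ARPE19 (log2 difference 0.39, SE 0.11, edgeR adjusted p = 0.0905). Cyclin D1 values overlap between the lines, while those of CDK4R24C do not, by a margin of about 1 CPM. Both are human sequences that the cell's own genes also match, and ARPE19 has reads on them with no plasmid. In the other lines labelled with the same plasmid, cyclin D1 and CDK4R24C construct reads averaged 2350 and 2380 CPM in RasV12, 857.7 and 1006 CPM in AKTmyr, and 269.5 and 142 CPM in MekDD, the last closest to T53D4 and ARPE19. The libraries labelled T53D4 thus show no called rise of cyclin D1 or CDK4R24C construct reads over ARPE19, against their label, and each direction given below rests on those libraries.

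The rows of the human genes TERT, CDK4, CCND1 and RB1 were read next. TERT had 924, 883 and 1137 CPM in T53D4, against 0.293, 0.282 and 0.125 CPM in ARPE19 (log2 fold change 11.93, SE 0.31, edgeR adjusted p = 5.65e-10). Gene and construct can take each other's reads, so the source of the TERT signal cannot be told apart. The same holds for the CDK4 and CCND1 rows. In RasV12, AKTmyr and MekDD, CDK4 averaged 1696, 757 and 129 CPM, and CCND1 3140, 1073 and 1119 CPM. CDK4 rose a little, at 87.7, 88.8 and 106 CPM in T53D4 against 54.3, 66.6 and 78.9 CPM in ARPE19 (log2 fold change 0.51, SE 0.10, edgeR adjusted p = 0.0335, and 0.228 without the block), and it overlaps MARCH9 and TSPAN31 on the other strand. CCND1 averaged 610 ± 134 CPM in T53D4 and 831 ± 127 CPM in ARPE19 and was not called. RB1 was nearly level, with 121 ± 7.33 CPM in T53D4 and 123 ± 13.2 CPM in ARPE19.

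**Figure D1:**
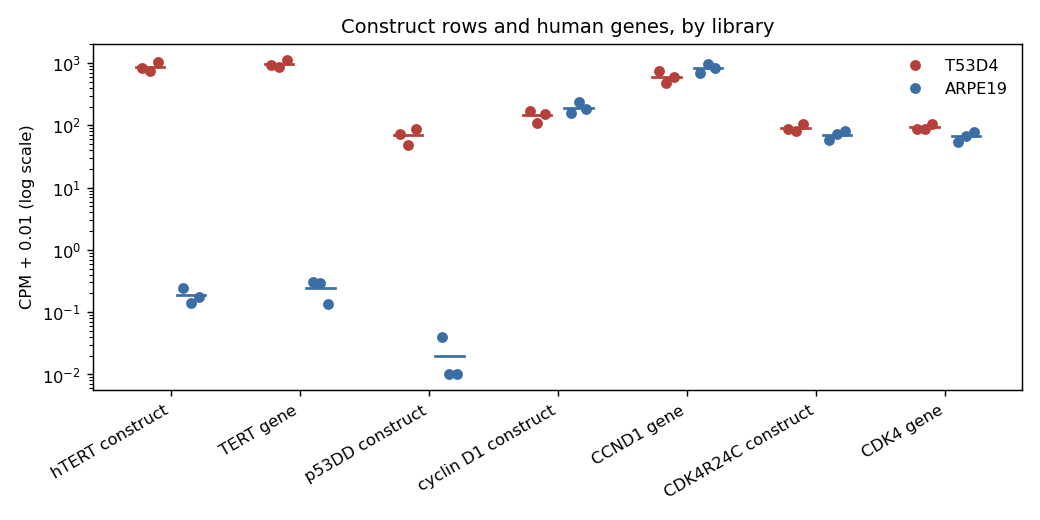
CPM plus 0.01, on a log scale, for 4 construct rows and the human genes TERT, CCND1 and CDK4. Points are the 3 libraries of each line, T53D4 in red and ARPE19 in blue, and bars are means. The hTERT and p53DD constructs and the TERT gene separate the lines, while the cyclin D1 and CDK4R24C constructs lie at like levels in both.

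Genes that p53 switches on were lower in T53D4. Of 40 listed targets, 38 were tested, and 13 fell, 0 rose and 25 were not called, where 0.963% of all genes were called lower. This list and those below were written with earlier results of these data known, so their shares describe the data and are not separate support. The list's median log2 fold change was -0.43, beside -0.0012 over all genes tested, and 34 of 38 values lay below 0. The 13 come from each role in the list, with 3 of 7 cell cycle arrest genes, 2 of 5 p53 feedback genes, 3 of 11 death receptor and apoptosis genes, 2 of 5 repair and nucleotide genes and 3 of 10 metabolic and stress genes.

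CDKN1A, which encodes the cell cycle inhibitor p21, had 216, 194 and 164 CPM in T53D4, against 656, 458 and 378 CPM in ARPE19. No T53D4 library reached the lowest ARPE19 library, and replicate 1 was highest in both lines (log2 fold change -1.36, SE 0.24, edgeR adjusted p = 0.02, and 0.0966 without the block). BTG2, an antiproliferative gene, fell the most of the list, with 18.4, 16.5 and 12.4 CPM in T53D4 against 60.4, 42.3 and 33.6 CPM in ARPE19 (log2 fold change -1.51, SE 0.25, edgeR adjusted p = 0.0169). CCNG1, which encodes cyclin G1, averaged 310 CPM in T53D4 and 534 CPM in ARPE19. GADD45A, another arrest gene, was not called and its values were higher in T53D4, at 204 CPM in T53D4 and 157 CPM in ARPE19.

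Feedback genes act on p53 itself. MDM2, the ubiquitin ligase that marks p53 for destruction, had 58.9, 49.9 and 77.5 CPM in T53D4, against 151, 143 and 167 CPM in ARPE19 (log2 fold change -1.33, SE 0.17, edgeR adjusted p = 0.00571, and 0.0399 without the block). Every T53D4 library lies below every ARPE19 library. On the opposite strand MDM2 overlaps CPM, a carboxypeptidase gene that was also lower (2.79 CPM in T53D4, 5.37 CPM in ARPE19), and whether counting used strand is not given in the sources used here. ZMAT3, an RNA-binding p53 target, averaged 77.8 CPM in T53D4 and 156 CPM in ARPE19. PPM1D, a phosphatase that turns p53 signalling off, was not called, with 23.7 CPM in T53D4 and 26.3 CPM in ARPE19.

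Repair and stress genes followed. RRM2B, the p53-induced subunit of ribonucleotide reductase, averaged 84.5 CPM in T53D4 and 184 CPM in ARPE19 (log2 fold change -1.12, SE 0.14, edgeR adjusted p = 0.00447). SESN1, a sestrin of the stress response, had 14.7, 17.9 and 15.4 CPM in T53D4, against 42.1, 37.9 and 31.6 CPM in ARPE19 (log2 fold change -1.21, SE 0.15, edgeR adjusted p = 0.00447). DDB2, a damage recognition factor, averaged 21.3 CPM in T53D4 and 39.2 CPM in ARPE19. SESN2, a second sestrin that ATF4 also drives, was not called and lay at 63.2 CPM in T53D4 and 45.9 CPM in ARPE19.

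Of the death receptor and apoptosis genes, 3 fell. The receptor gene FAS averaged 50.8 CPM in T53D4 and 72.4 CPM in ARPE19, EDA2R, a receptor of the same superfamily, 27.7 CPM in T53D4 and 49.1 CPM in ARPE19, and TP53INP1, a p53 cofactor gene, 18.96 CPM in T53D4 and 44.5 CPM in ARPE19, all called. The BCL2 family killers BAX, BBC3 and PMAIP1 were not called, with log2 fold changes of -0.14, -0.30 and 0.24. FDXR and FBXO22 complete the 13 calls, at -0.80 and -0.45.

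**Figure D2:**
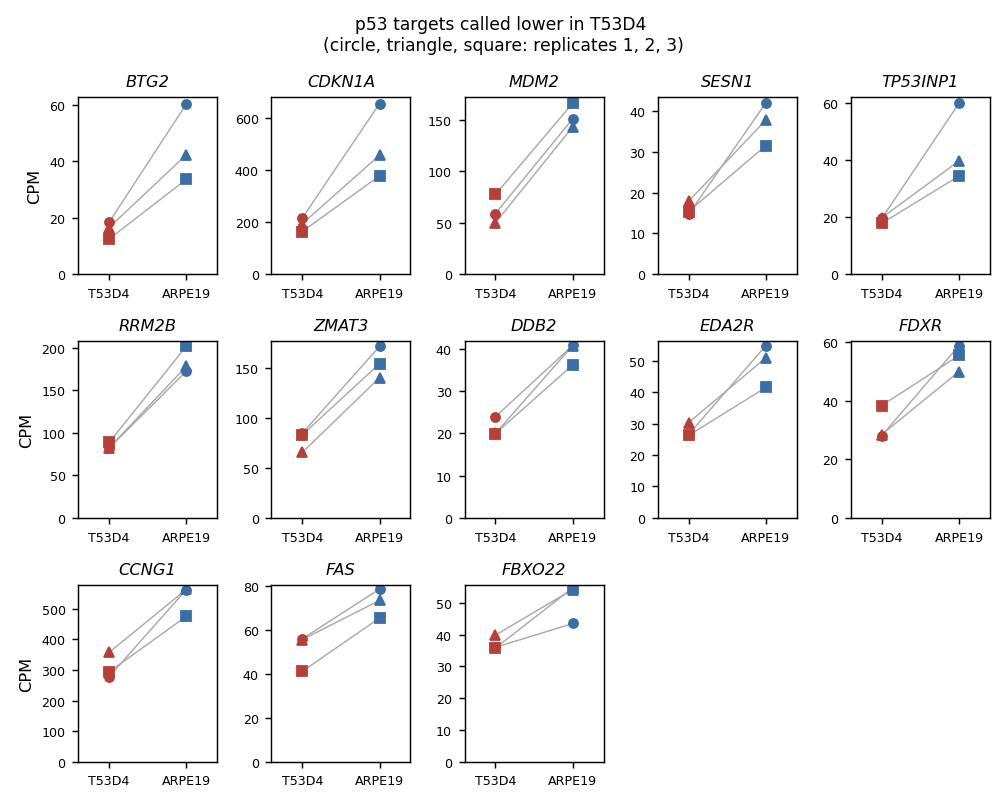
CPM of the 13 p53 targets called lower, T53D4 on the left and ARPE19 on the right of each panel, with grey lines joining libraries of the same replicate number. Every line climbs to the ARPE19 side, with a mean for MDM2 of 62.1 CPM in T53D4 and 154 CPM in ARPE19, and the libraries of the lines do not overlap.

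Fewer p53 targets were called when any of the 6 libraries was left out. Leaving out T53D4 replicate 1, 2 or 3 left 3, 2 and 3 calls, and leaving out ARPE19 replicate 1, 2 or 3 left 3, 3 and 10, while 3 were called without the block. The list's median stayed between -0.44 and -0.33 in those 6 fits, and was below 0 in each. With replicate number 1, 2 or 3 left out in all lines, 8, 0 and 6 targets were called. With the 2 lines alone and no block, 0 were called. Levels in the other lines differ by gene. CDKN1A averaged 491 CPM in RasV12, 165 CPM in MekDD and 1016 CPM in AKTmyr, beside 191 CPM in T53D4 and 497 CPM in ARPE19. MDM2 averaged 86.0, 58.6 and 78.5 CPM in RasV12, MekDD and AKTmyr, all nearer to T53D4 than to ARPE19.

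PTCHD4, a patched-domain gene outside that list, was among the largest falls and is shown with its promoter because a p53 element lies in it. It had 3.83, 4.51 and 4.38 CPM in T53D4, against 14.4, 13.7 and 12.6 CPM in ARPE19 (log2 fold change -1.68, SE 0.25, edgeR adjusted p = 0.0113, and 0.0302 without the block). The 250 bases before its RefSeq start (GRCh38.p14, chr6:48111198-48111447, minus strand) end in a pair of p53 half-sites without a gap, at positions -20 to -1, printed in capitals.

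PTCHD4: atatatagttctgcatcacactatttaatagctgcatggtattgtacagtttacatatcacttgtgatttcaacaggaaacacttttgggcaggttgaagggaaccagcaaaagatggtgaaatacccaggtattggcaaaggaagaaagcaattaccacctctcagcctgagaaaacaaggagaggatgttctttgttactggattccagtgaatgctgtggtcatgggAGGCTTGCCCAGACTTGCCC

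The search took the consensus p53 half-site repeated with a gap of at most 13 bases, on both strands, in windows of 250 bases before to 50 after the start. That string lay in 8 of 27305 promoters (0.0293%) and in 3 of the 10900 tested genes with an entry (0.0275%). It lay in none of the 30 p53 targets with an entry, whose known elements often sit in introns or farther upstream. The deposited annotation starts PTCHD4 42508 bases downstream of the RefSeq start.

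Genes of the ATF4 response rose in T53D4. Of 36 listed genes 35 were tested, and 12 rose, 0 fell and 23 were not called, where 0.743% of all genes were called higher. This list too was written with earlier results of these data known. The list's median was 1.00 on the log2 scale and 31 of 35 values lay above 0. Rises came in each role, with 3 of 8 transcription factor genes, 3 of 8 synthesis genes, 1 of 8 transporters and 5 of 11 stress effectors.

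ATF4 itself had 638, 614 and 497 CPM in T53D4, against 299, 401 and 356 CPM in ARPE19 (log2 fold change 0.74, SE 0.16, edgeR adjusted p = 0.0436). DDIT3, which encodes the stress factor CHOP, had 17.9, 28.8 and 22.1 CPM in T53D4, against 5.30, 10.4 and 10.2 CPM in ARPE19 (log2 fold change 1.45, SE 0.17, edgeR adjusted p = 0.00447, and 0.264 without the block). The lines do not overlap for either gene, and ARPE19 replicate 1 is the lowest library for both. The span of DDIT3 overlaps AC022506.1 on the same strand, and MARS and MBD6 on the other strand. NUPR1, a stress-induced chromatin protein, averaged 202 ± 25.3 CPM in T53D4 and 90.4 ± 24 CPM in ARPE19. ATF3, ATF5 and CEBPB were not called, with log2 fold changes of 0.67, -0.05 and 0.04.

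Enzymes of serine, glycine and proline synthesis were higher. PHGDH, which opens serine synthesis from a glycolytic intermediate, had 474, 345 and 328 CPM in T53D4, against 83.8, 164 and 153 CPM in ARPE19 (log2 fold change 1.51, SE 0.24, edgeR adjusted p = 0.0154, and 0.0355 without the block). SHMT2, the mitochondrial enzyme that turns serine into glycine, averaged 391 CPM in T53D4 and 195 CPM in ARPE19, and PYCR1, of proline synthesis, 132 CPM in T53D4 and 66.8 CPM in ARPE19. Downstream neighbours in the serine pathway were not called, PSAT1 at a log2 fold change of 1.77 (SE 0.48, edgeR adjusted p = 0.0794) and PSPH at 0.81 (SE 0.28, edgeR adjusted p = 0.15). ASNS, asparagine synthetase, was not called either, at 183 CPM in T53D4 and 54.7 CPM in ARPE19 (edgeR adjusted p = 0.056).

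Among transporters SLC1A4, which carries neutral amino acids including serine, rose. It had 57.7, 63.5 and 56.1 CPM in T53D4, against 9.29, 24.7 and 23.9 CPM in ARPE19 (log2 fold change 1.68, SE 0.28, edgeR adjusted p = 0.018, and 0.0988 without the block). Replicates agree closely in T53D4, whereas in ARPE19 replicate 1 is far below the others. SLC7A11, the cystine importer, shows the same spread without a call, with 104, 79.5 and 91.2 CPM in T53D4 and 12.7, 45.6 and 56.5 CPM in ARPE19 (edgeR adjusted p = 0.133). SLC7A5 and SLC3A2, the 2 chains of a leucine transporter, averaged 928 and 342 CPM in T53D4 and 466 and 160 CPM in ARPE19, and were not called.

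Among called genes with no overlap and at least 5 CPM in T53D4, the largest rises after TERT were stress effectors. ADM2, a peptide hormone gene, had 17.4, 6.47 and 4.67 CPM in T53D4, against 1.23, 1.41 and 1.499 CPM in ARPE19 (log2 fold change 2.72, SE 0.44, edgeR adjusted p = 0.0154, and 0.04 without the block). CTH, which makes cysteine from cystathionine, had 31.2, 28.4 and 26.1 CPM in T53D4, against 3.55, 10.3 and 10.99 CPM in ARPE19 (log2 fold change 1.91, SE 0.40, edgeR adjusted p = 0.0407, and 0.156 without the block). CHAC1, which degrades glutathione, had 28.9, 14.1 and 16.2 CPM in T53D4, against 3.25, 5.56 and 8.25 CPM in ARPE19 (log2 fold change 1.88, SE 0.42, edgeR adjusted p = 0.0459, and 0.117 without the block). In these genes every T53D4 library exceeds every ARPE19 library, and replicate 1 holds the highest T53D4 value. TRIB3, a pseudokinase that feeds back on ATF4 signalling, averaged 104 ± 31.8 CPM in T53D4 and 31.2 ± 7.3 CPM in ARPE19. PCK2, the mitochondrial phosphoenolpyruvate carboxykinase, averaged 122 ± 20.6 CPM in T53D4 and 40.4 ± 12.8 CPM in ARPE19, and its span overlaps NRL on the other strand. Neither TRIB3 nor PCK2 was called without the block (edgeR adjusted p = 0.214 and 0.103). CBSL (log2 fold change 1.67) is a near-identical copy of CBS, the enzyme before CTH, and reads of the pair cannot be assigned with certainty. CBS itself was not called, at 11.5 CPM in T53D4 and 8.12 CPM in ARPE19.

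**Figure D3:**
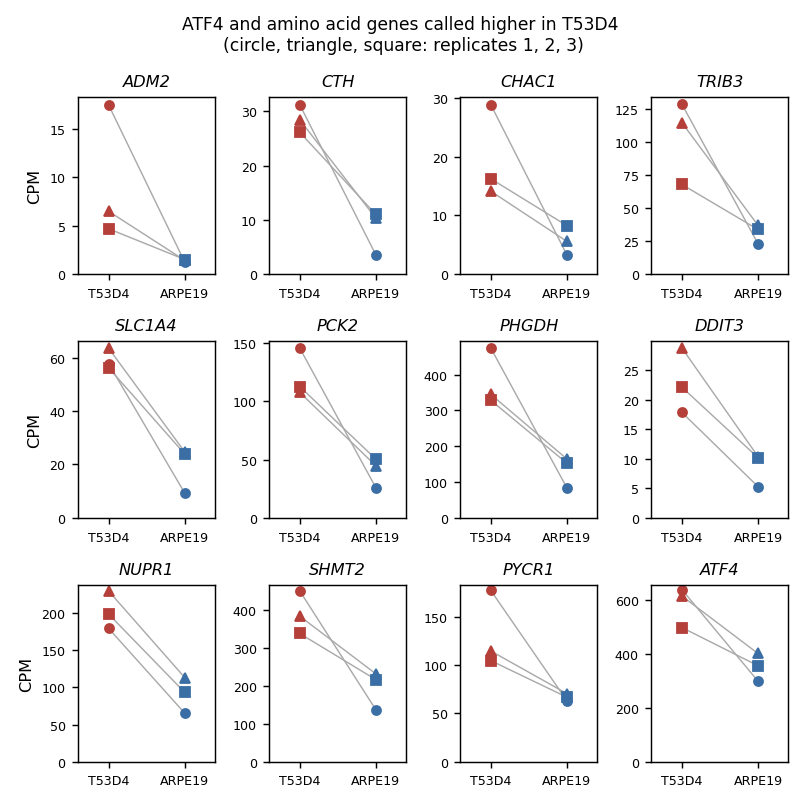
CPM of the 12 ATF4 and amino acid genes called higher, T53D4 on the left and ARPE19 on the right of each panel, with grey lines joining libraries of the same replicate number. Every line drops to the ARPE19 side, most steeply for replicate 1 (circles) in panels such as PHGDH, with 474 CPM in T53D4 and 83.8 CPM in ARPE19.

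Enzymes that load amino acids onto tRNA, many of them also ATF4 targets, gave 1 higher call among 20, where 0.743% of all genes were called higher. AARS1, the alanine enzyme, had 411, 482 and 426 CPM in T53D4, against 137, 261 and 255 CPM in ARPE19 (log2 fold change 1.06, SE 0.20, edgeR adjusted p = 0.0288, and 0.224 without the block). The list's median was 0.32 and 16 of 20 values lay above 0. MARS1 and YARS1 had log2 fold changes of 0.97 and 0.92 without a call, while RARS1, KARS1 and QARS1 lay at -0.26, -0.075 and 0.06.

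CHAC1 and AARS1, called higher, each hold the ATF4 element TGATGNAA in the 250 bases before the RefSeq start, on the minus strand of the gene, so that it reads TTGCATCA here in capitals. In CHAC1 (GRCh38.p14, chr15:40953221-40953470, plus strand) it lies at -209 to -202, and in AARS1 (chr16:70289507-70289756, minus strand) at -187 to -180.

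CHAC1: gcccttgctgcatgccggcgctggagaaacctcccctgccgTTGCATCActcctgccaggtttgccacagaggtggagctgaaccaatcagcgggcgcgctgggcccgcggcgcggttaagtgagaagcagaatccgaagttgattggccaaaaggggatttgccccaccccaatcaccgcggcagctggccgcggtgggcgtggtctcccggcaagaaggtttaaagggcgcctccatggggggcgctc
AARS1: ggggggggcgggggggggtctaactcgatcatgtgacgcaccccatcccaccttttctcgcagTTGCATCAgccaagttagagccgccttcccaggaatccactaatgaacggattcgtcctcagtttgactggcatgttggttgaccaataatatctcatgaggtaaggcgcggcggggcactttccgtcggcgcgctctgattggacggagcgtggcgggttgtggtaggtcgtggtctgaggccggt

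In windows of 300 bases, both strands, TGATGNAA lay in 5 of 29 promoters of the ATF4 list (17.2%), namely ASNS, ATF3, CHAC1, SLC3A2 and SLC7A1. Among the 9 list genes called higher that have an entry, only 1, CHAC1, held it. It lay in 4 of 78 promoters of genes called higher (5.13%), in 3 of 111 of genes called lower (2.7%), in 1.74% of promoters of genes tested and in 3.67% of all promoters in the table. Whether the element took part in any rise was not tested. The RefSeq start lies 509 bases downstream of the deposited start for CHAC1 and 37 for AARS1.

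ARPE19 replicate 1 is the lowest library for the ATF4 list. Centred on the 6 libraries, the list's median log2 CPM was 0.80, 0.45 and 0.32 in T53D4 replicates 1, 2 and 3, against -0.85, -0.33 and -0.33 in ARPE19. Leaving out T53D4 replicate 1, 2 or 3 left 2, 2 and 2 calls, leaving out ARPE19 replicate 1, 2 or 3 left 2, 1 and 14, and 2 were called without the block. The median was 0.79 without ARPE19 replicate 1. With the 2 lines alone, 7 were called with the block and 0 without it. With replicate number 1, 2 or 3 left out in all lines, 6, 0 and 9 were called. PHGDH averaged 330, 416 and 283 CPM in RasV12, MekDD and AKTmyr, and CTH 26.0, 29.3 and 21.7 CPM, near their T53D4 levels of 382 and 28.6 CPM and above those of 134 and 8.28 CPM in ARPE19. Other called genes lay nearer to ARPE19 in RasV12, with NUPR1 at 88.5 CPM, SLC1A4 at 32.6 CPM and PCK2 at 63.5 CPM, beside 202, 59.1 and 122 CPM in T53D4 and 90.4, 19.3 and 40.4 CPM in ARPE19.

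Genes of DNA replication lay higher in T53D4 as a list, with few calls. Of 50 tested, MCM2 and CDT1 rose, 0 fell, and 48 were not called, where 0.743% of all genes were called higher. The median log2 fold change was 0.62, all 50 values lay above 0, and 20 genes had libraries that do not overlap, where 8.04% of all genes did in that direction. MCM2, a subunit of the replicative helicase, had 163, 147 and 193 CPM in T53D4, against 71.3, 85.6 and 115 CPM in ARPE19 (log2 fold change 0.90, SE 0.17, edgeR adjusted p = 0.0312, and 0.174 without the block). CDT1, which loads that helicase at origins, had 56.9, 61.7 and 68.3 CPM in T53D4, against 28.5, 33.8 and 40.4 CPM in ARPE19 (log2 fold change 0.87, SE 0.16, edgeR adjusted p = 0.0263, and 0.0988 without the block). Replicate 3 is the highest library of each line for both genes.

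By role, medians were 0.66 for 12 origin licensing genes, 0.64 for 13 helicase partners and polymerases, 0.46 for 14 genes of the clamp, ligase and nucleotide supply, and 0.60 for 11 regulators of S phase entry. CDC6, which works with CDT1, averaged 78.1 CPM in T53D4 and 43.2 CPM in ARPE19 without a call. E2F1 and E2F2, factors that RB holds in check, averaged 57.3 and 10.8 CPM in T53D4 and 32.3 and 5.51 CPM in ARPE19, with edgeR adjusted p = 0.056 and 0.0734. CCNE1, which encodes cyclin E1, lay at 9.52 CPM in T53D4 and 8.64 CPM in ARPE19.

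The CDT1 promoter is shown because CDT1, 1 of the 2 called genes of the list, holds an E2F element close to its start. MCM2, the other, held neither E2F string searched. In the 250 bases before it (GRCh38.p14, chr16:88803539-88803788, plus strand), the E2F string TTTCCCGC lies on the minus strand at -35 to -28 and reads GCGGGAAA here in capitals.

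CDT1: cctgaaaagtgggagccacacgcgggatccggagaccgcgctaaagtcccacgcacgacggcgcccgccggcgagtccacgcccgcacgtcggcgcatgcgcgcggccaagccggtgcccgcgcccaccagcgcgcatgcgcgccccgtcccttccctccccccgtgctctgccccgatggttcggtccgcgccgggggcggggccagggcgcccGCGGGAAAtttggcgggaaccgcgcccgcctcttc

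TTTCCCGC lay in 10 of 43 promoters of the replication list (23.3%), against 2.55% of promoters of genes tested. The other E2F string searched, TTTGGCGC, lay in 9 of 43 (20.9%), against 1.09%. No promoter of the list held both. These shares describe which genes are in the list and say nothing of the lines.

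Genes of mitosis showed less. Of 61 tested, 2 rose, where 0.743% of all genes were called higher, 0 fell, and the median was 0.33. Among the risers, MYBL2, a factor that works with the mitotic gene programme, had 198, 134 and 146 CPM in T53D4, against 73.0, 79.3 and 92.5 CPM in ARPE19 (log2 fold change 0.97, SE 0.21, edgeR adjusted p = 0.0427). In 5 of 61 genes the libraries do not overlap, all higher in T53D4, a share near the 8.04% of all genes tested.

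Both lists also differ among the vials of a line. Centred on the 6 libraries, the replication median was 0.20, 0.21 and 0.54 in T53D4 replicates 1, 2 and 3, against -0.79, -0.31 and 0.19 in ARPE19, and the mitosis median was 0.08, 0.15 and 0.37 in T53D4, against -0.67, -0.26 and 0.37 in ARPE19. ARPE19 replicate 1 is the lowest library in each, and replicate 3 of ARPE19 stands level with T53D4 for mitosis. Without ARPE19 replicate 1 the medians were 0.41 and 0.10, with 0 called in each list, and 0 were called in each without the block. Whether the share of dividing cells in a culture took part was not tested, and in bulk RNA more cells in a phase and more RNA per cell cannot be told apart.

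**Figure D4:**
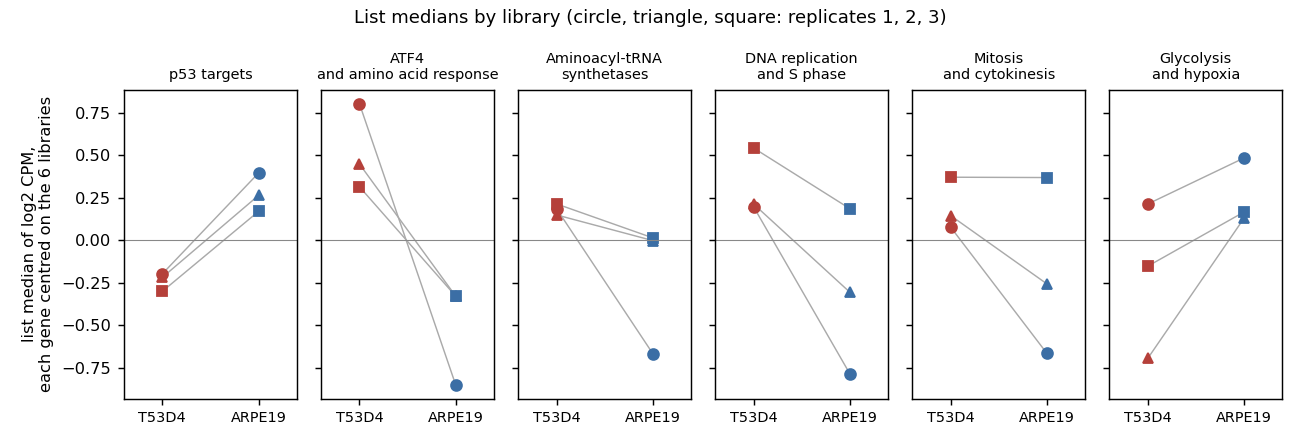
Median over list members of log2 CPM, each gene centred on its mean over the 6 libraries, for 6 lists. Symbols mark replicates 1, 2 and 3, T53D4 on the left and ARPE19 on the right. p53 targets are lower in all 3 T53D4 libraries, at -0.20, -0.22 and -0.30 against 0.40, 0.26 and 0.17 in ARPE19, and ARPE19 replicate 1 is lowest for the ATF4, tRNA synthetase, replication and mitosis lists.

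Regulators of entry into the cycle were called in both directions. Besides CDK4 and CDKN1A, CDKN2C was called among 15 tested, where 1.71% of all genes were called either way. CDKN2C encodes the p18 inhibitor of CDK4 and CDK6 and had 55.3, 48.2 and 61.1 CPM in T53D4, against 29.5, 25.6 and 41.8 CPM in ARPE19 (log2 fold change 0.79, SE 0.14, edgeR adjusted p = 0.0212). CDKN2A, which encodes p16 and ARF, averaged 19.6 ± 4.89 CPM in T53D4 and 16.6 ± 5.2 CPM in ARPE19, and was not called. CDK6, the partner kinase of CDK4, was not called either, at 98.6 CPM in T53D4 and 141 CPM in ARPE19.

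Survival genes of the BCL2 family changed in opposite directions. BCL2, which blocks mitochondrial cell death, had 8.28, 13.02 and 12.2 CPM in T53D4, against 3.02, 5.25 and 4.998 CPM in ARPE19 (log2 fold change 1.34, SE 0.23, edgeR adjusted p = 0.018). BCL2L1, which encodes BCL-XL, had 278, 296 and 296 CPM in T53D4, against 430, 444 and 369 CPM in ARPE19 (log2 fold change -0.51, SE 0.11, edgeR adjusted p = 0.0449). The lines do not overlap for either. HRK, a killer of the same family, was not called, at 22.4 CPM in T53D4 and 9.16 CPM in ARPE19, and the other 13 members were not called. Of all genes tested, 1.71% were called either way.

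Among 15 telomere genes TERT and ACD were called higher, where 0.743% of all genes were. ACD encodes TPP1, the shelterin protein that recruits telomerase, and averaged 21.8 ± 1.62 CPM in T53D4 and 15.9 ± 1.29 CPM in ARPE19 (log2 fold change 0.46, SE 0.10, edgeR adjusted p = 0.0427). Its span overlaps CARMIL2 on the other strand. DKC1, a telomerase RNA-binding protein gene, lay at 96.7 CPM in T53D4 and 77 CPM in ARPE19 without a call.

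Most of the largest falls with at least 5 CPM in ARPE19 and no overlap between libraries lay outside the p53 list. That list is not a full survey of p53 targets. HRNR and FLG, neighbours on chromosome 1 that encode hornerin and filaggrin, large proteins of the skin barrier, fell together. HRNR had 0.479, 2.19 and 2.29 CPM in T53D4, against 5.42, 11.3 and 9.08 CPM in ARPE19 (log2 fold change -2.49, SE 0.31, edgeR adjusted p = 0.00447). FLG had 3.53, 7.79 and 10.5 CPM in T53D4, against 19.1, 36.4 and 36.7 CPM in ARPE19 (log2 fold change -2.14, SE 0.28, edgeR adjusted p = 0.00592). Both were lowest in replicate 1 of each line, and neither was called without the block (edgeR adjusted p = 0.128 and 0.139).

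CDH10, a cadherin gene, had 1.92, 2.26 and 2.81 CPM in T53D4, against 15.3, 10.5 and 9.33 CPM in ARPE19 (log2 fold change -2.37, SE 0.43, edgeR adjusted p = 0.0233, and 0.0846 without the block). Its levels in RasV12, MekDD and AKTmyr were 1.49, 0.498 and 2.27 CPM. NDN, which encodes the growth suppressor necdin, had 4.79, 2.47 and 3.00 CPM in T53D4, against 13.3, 8.07 and 7.29 CPM in ARPE19 (log2 fold change -1.49, SE 0.15, edgeR adjusted p = 0.00137, and 0.083 without the block). APOBEC3C, a cytidine deaminase gene, had 5.89, 7.16 and 6.67 CPM in T53D4, against 28.3, 18.8 and 13.04 CPM in ARPE19 (log2 fold change -1.58, SE 0.27, edgeR adjusted p = 0.0182, and 0.0464 without the block). ARPE19 replicate 1 is the highest library for each of these genes, and the lines do not overlap. The span of APOBEC3C overlaps AL022318.4 on the same strand.

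SLC1A1, a glutamate and cysteine transporter, averaged 10.9 ± 3.74 CPM in T53D4 and 29.4 ± 8.17 CPM in ARPE19, and its span overlaps SPATA6L. MAST4, a kinase gene, averaged 12.3 ± 2.96 CPM in T53D4 and 28.6 ± 6.28 CPM in ARPE19, and PSTPIP2, which encodes an actin-associated adaptor, 9.93 ± 1.18 CPM in T53D4 and 24.9 ± 3.65 CPM in ARPE19. Both were called without the block as well (edgeR adjusted p = 0.0302 and 0.0494). BNC1, an epithelial zinc finger factor gene, and RFLNA, which overlaps ZNF664, complete the set at log2 fold changes of -1.78 and -1.805. The next gene outside the set of 14 was SESN1, at -1.21, against -1.23 for MAST4 inside it.

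Outside the ATF4 list the set of 14 rises adds TERT, CBSL, JDP2, SLC43A1 and BCL2. JDP2, an AP-1 repressor gene, had 49.7, 26.8 and 25.6 CPM in T53D4, against 12.3, 11.6 and 11.6 CPM in ARPE19 (log2 fold change 1.502, SE 0.22, edgeR adjusted p = 0.0113, and 0.0302 without the block). SLC43A1, a carrier of branched-chain amino acids, had 7.15, 7.44 and 4.38 CPM in T53D4, against 2.55, 2.59 and 2.04 CPM in ARPE19 (log2 fold change 1.39, SE 0.26, edgeR adjusted p = 0.0276). NUPR1 closes the set at 1.20, and RPS6KA2, just outside it, had 1.06. Without T53D4 replicate 1, 2 or 3, 4, 4 and 4 of the 14 rises and 5, 2 and 6 of the 14 falls were called, and without ARPE19 replicate 1, 2 or 3, 3, 2 and 13 of the rises and 6, 5 and 14 of the falls. With all libraries but no block, 4 of the 14 rises and 5 of the 14 falls were called.

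The labelled cell type was checked on 30 RPE genes, of which 28 were tested and 1 was called, where 1.71% of all genes were called either way. The transcription factors of RPE were expressed at like levels in both lines, with MITF at 92.5 CPM in T53D4 and 83.3 CPM in ARPE19, OTX2 at 64.4 CPM in T53D4 and 64.9 CPM in ARPE19, and PAX6 at 118 CPM in T53D4 and 101 CPM in ARPE19. No member of the 6 was called. The 28 genes summed to 4002, 4251 and 4393 CPM in T53D4 replicates 1, 2 and 3, against 5196, 5012 and 4835 CPM in ARPE19. Values lay below 0 for 6 of 7 visual cycle genes and 7 of 9 epithelial function genes, and above 0 for 5 of 6 pigmentation genes. T53D4 libraries lay wholly below ARPE19 in 4 genes and wholly above in 1, where 8.57% and 8.04% of all genes did. Some genes of mature RPE were low in both lines. RLBP1 had 2.93 CPM in T53D4 and 3.398 CPM in ARPE19, TYRP1 1.70 CPM in T53D4 and 1.48 CPM in ARPE19, and TYR 0.155 CPM in T53D4 and 0.111 CPM in ARPE19. BEST1, a chloride channel of RPE, was the single call, at 4.07, 1.801 and 1.48 CPM in T53D4 against 0.762, 1.05 and 0.708 CPM in ARPE19 (log2 fold change 1.45, SE 0.32, edgeR adjusted p = 0.0459), and its span overlaps FTH1, a highly expressed gene on the other strand. Markers of other cell types summed to 211 to 274 CPM over 9 tested genes in T53D4 and 223 to 314 CPM in ARPE19, mostly from CD68 and PDGFRB, and none was called.

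Signalling through ERK, which the constructs do not carry, gave 2 lower calls among 26 output genes and a median of -0.26. Of all genes tested, 0.963% were called lower. Centred list medians were 0.122, -0.275 and -0.137 in T53D4 replicates 1, 2 and 3, against 0.062, 0.252 and 0.113 in ARPE19. In replicate 1 T53D4 thus lay above ARPE19. TGFA, an EGF receptor ligand, had 62.2, 26.4 and 33.1 CPM in T53D4, against 95.0, 76.0 and 78.1 CPM in ARPE19 (log2 fold change -1.13, SE 0.24, edgeR adjusted p = 0.0412). SPRED3, a RAS inhibitor gene, averaged 7.46 ± 0.754 CPM in T53D4 and 12.4 ± 1.73 CPM in ARPE19 (edgeR adjusted p = 0.0465). DUSP6, FOSL1 and MYC, further outputs of the pathway, had log2 fold changes of -0.31, -0.01 and 0.19 and were not called.

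Of 36 genes of glycolysis and the hypoxia response, 35 had values below 0 and the median was -0.50. GAPDH was yet the single call, where 0.963% of all genes were called lower. GAPDH, a glycolytic enzyme often used as a standard, had 5768, 4685 and 4679 CPM in T53D4, against 9580, 7489 and 5628 CPM in ARPE19. T53D4 replicate 1 exceeds ARPE19 replicate 3, so the lines overlap (log2 fold change -0.56, SE 0.12, edgeR adjusted p = 0.0459, and 0.347 without the block). Centred list medians were 0.21, -0.70 and -0.15 in T53D4 replicates 1, 2 and 3, against 0.48, 0.13 and 0.17 in ARPE19, which makes T53D4 replicate 2 the lowest library. LDHA and CA9, a lactate enzyme and a hypoxia marker, were not called, at 2048 and 102.5 CPM in T53D4 and 3240 and 178 CPM in ARPE19.

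Of 10 histone genes, 6 had values below 0 and 4 above, and 1 was called lower, where 0.963% of all genes were. H2BC12 was the single call, with 5.55, 7.57 and 9.24 CPM in T53D4 against 14.1, 15.2 and 13.3 CPM in ARPE19 (log2 fold change -0.95, SE 0.18, edgeR adjusted p = 0.0276). H2BC21, H4C8, H2AC6, H2BC5 and H1-2, further genes of the replication-dependent clusters, had log2 fold changes of -1.33, -1.19, -1.18, -1.10 and -0.98 without a call, and the lines did not overlap for any of them, where 8.57% of all genes had T53D4 libraries wholly below those of ARPE19. The variants H2AZ1, H2AX and H3-3B, made outside those clusters or with ordinary tails, had 0.69, 0.55 and 0.21. Transcripts of the clusters are normally made without a tail, and how many poly(A) selection kept was not tested.

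A further 6 lists held 1 or 2 calls each, where 1.71% of all genes were called either way. PLOD2, a collagen lysyl hydroxylase gene, fell among 37 matrix genes, with 451 ± 187 CPM in T53D4 and 785 ± 126 CPM in ARPE19 (edgeR adjusted p = 0.0298). IL33, a cytokine gene, fell among 25, at 0.205, 0.282 and 0.714 CPM in T53D4 against 1.03, 1.64 and 3.67 CPM in ARPE19 (edgeR adjusted p = 0.0436). Interferon genes split, with TRIM22, an antiviral factor gene, lower (63.1 ± 6.65 CPM in T53D4, 123 ± 21.3 CPM in ARPE19) and IFI35 higher (19.2 ± 2.56 CPM in T53D4, 12.96 ± 1.66 CPM in ARPE19) among 33. The span of TRIM22 overlaps OR56B1 on the same strand and TRIM5 on the other. BMP2, a growth factor gene, fell among 29 TGF-beta and BMP genes, HES4, a Notch target, rose among 35 WNT and Notch genes, and GRB10, an adaptor that restrains insulin receptors, rose among 14 IGF genes, at log2 fold changes of -0.73, 0.71 and 0.39. For HES4 and GRB10 the libraries of the lines overlap.

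No member was called in another 12 lists. Medians there ran from -0.30 for 23 FOXO targets to 0.14 for 34 sterol and fatty acid genes, with 0.05 for 20 mesenchymal genes, -0.20 for 22 epithelial genes, 0.07 for 33 oxidative phosphorylation genes and 0.10 for 33 ribosome biogenesis and MYC genes. A few members varied strongly between vials. TAGLN, a contractile protein gene, had 566, 149 and 48.5 CPM in T53D4 and 119, 61.4 and 33.8 CPM in ARPE19 (log2 fold change 1.548, SE 0.615, edgeR adjusted p = 0.197). MMP3, a matrix protease gene, had 0.0342, 0.260 and 4.76 CPM in T53D4 and 0.0879, 2.56 and 17.5 CPM in ARPE19 (log2 fold change -2.10, SE 0.54, edgeR adjusted p = 0.0721). In both genes the replicates follow one order in the 2 lines, replicate 1 being highest for TAGLN and lowest for MMP3.

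**Figure D5:**
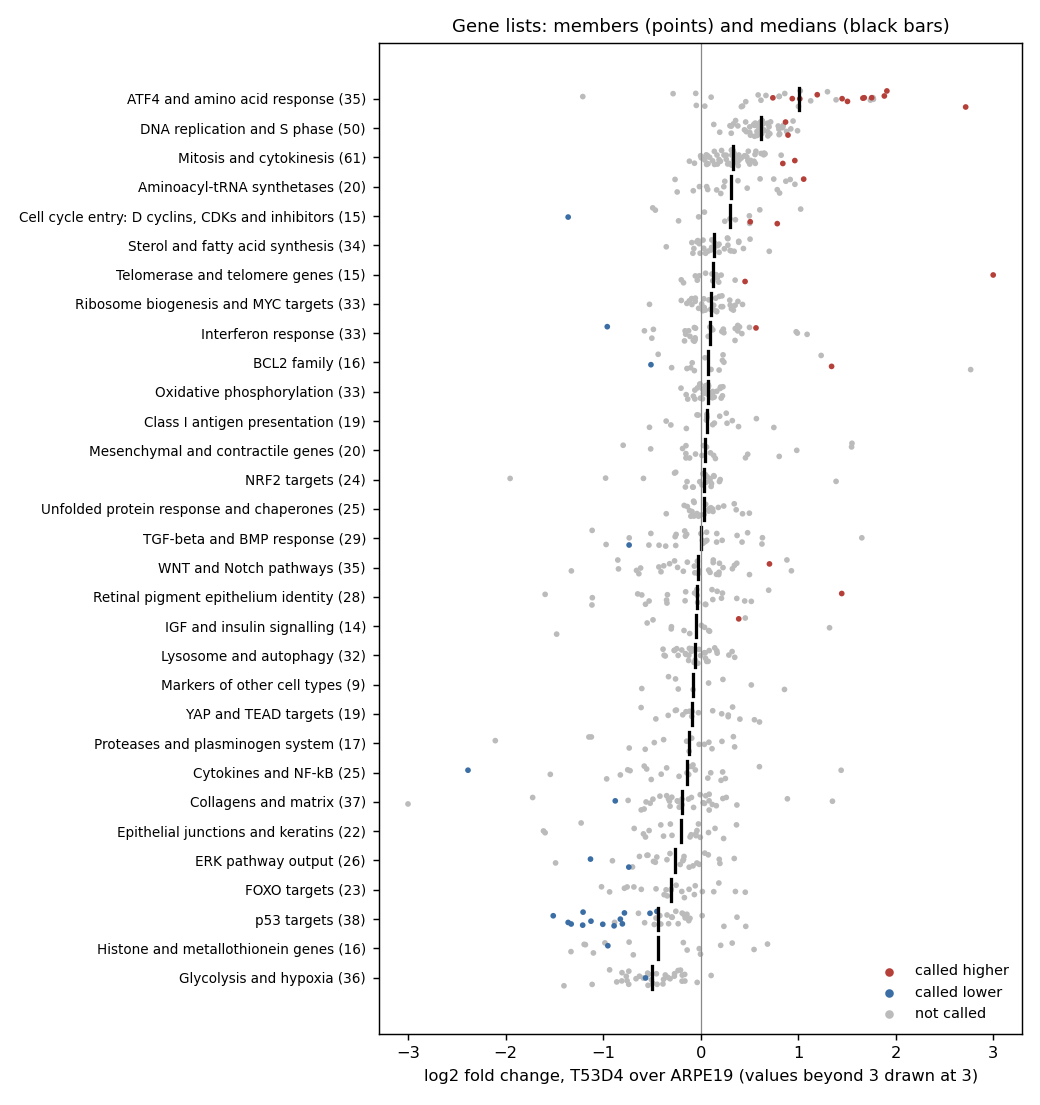
Log2 fold change of T53D4 over ARPE19 for the members of 31 lists, with the number tested in brackets and black bars for medians. Red points were called higher, blue points lower and grey points not called, and values beyond 3 are drawn at 3. The ATF4 list stands at the top with a median of 1.00, and p53 targets hold the most blue points, 13 of 38.

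Chromosomes differed little. Among genes averaging 5 CPM or more, the median log2 fold change per chromosome ran from -0.04 on X to 0.06 on 16.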

How the data were processed

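Poly(A) RNA of 5 lines, with 3 libraries each, was sequenced with a directional kit, per the labels' protocols. The authors deposited raw read counts per gene of 15510 protein-coding genes and 7 construct rows. The submitters' processing notes name hg38, DESeq2 1.28.1, featureCounts 1.6.4, fastp 0.20.0, deepTools 3.2.0, SAMtools 1.9 and HISAT2 2.1.0, without their roles. Whether counting used strand is not given in the sources used here. The deposited normalised and log tables were not used, and 0 count columns belonged to no sample.

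Construct rows were left out of the genes tested. Counts from all 15 libraries were fitted with edgeR 4.0.16 in R 4.3.3 (quasi-likelihood test, TMM factors, filterByExpr by line with a minimum count of 10, replicate number as a block plus line, 8 residual degrees of freedom), with Benjamini-Hochberg adjustment over 13599 genes and a threshold of 0.05. An SE is the log2 fold change divided by the root of F. CPM are counts scaled to library totals times TMM factors. The fit was run on counts simulated from its own model, which cannot test the block or the dependence on single libraries. limma 3.58.1, DESeq2 1.42.0 and 17 alternative settings in all were run. The replicate numbers were taken to pair the samples, as the comparison was defined. Deviations from the line means of same-numbered T53D4 and ARPE19 libraries correlated at 0.589, 0.58 and 0.691 over 10511 genes, against -0.649 to 0.169 for unlike numbers. Each line was centred on its own 3 libraries, so positive values for like numbers pull those for unlike numbers down. The second range is therefore not separate support for the pairing.

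The genes and the 31 lists were chosen with earlier results of these data known. Named were 8 genes that the constructs bear on, the 14 largest rises and 14 largest falls among called genes whose libraries do not overlap and whose higher line averages 5 CPM or more, and up to 4 called or 2 uncalled members of each list. Other list members were named after their values were seen. Promoters are RefSeq sequences. Bases just after the RefSeq start were found near the start of an annotated transcript for 50 of 63 named genes with an entry. Of the 4 promoters shown, this held for only 1. Some results are not reported here.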

Additional observations from a re-analysis of the deposited data

How the results depend on the processing

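Counts of genes called depend strongly on the block and on single libraries. No replicate block gave 5 higher and 16 lower, against 101 and 131 with it, and the 2 lines alone without a replicate block gave 1 and 1. DESeq2 called 381 higher and 483 lower. Leaving out 1 library or 1 replicate number gave 1 to 112 higher and 0 to 126 lower, with 1 and 0 without replicate 2, and the cause was not tested. The other alternatives (RLE factors, no filter on low counts, limma-voom, the 2 lines alone with the block, construct rows kept) gave 86 to 131 higher and 106 to 151 lower. Like counts did not mean the same genes. The 2 lines alone with the block called 98 higher and 139 lower, of which 53 and 80 are among the 101 and 131 reported. Of the genes without a call, RB1 turned to 0.033 without T53D4 replicate 1, 0.045 without ARPE19 replicate 2, 0.014 without ARPE19 replicate 3 and 0.011 without replicate 3, against -0.02 in the fit reported, and its range over the settings that leave out a library or replicate was -0.117 to 0.045. Depth of 20.63 to 46.55 M reads limits low genes such as TYR, and 1 line per construct limits every comparison.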

Other observations

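Genes named ZNF with a number, most of them zinc finger transcription factors, were looked at after their values were seen, so no test was made. Of 442 tested, 0 were called higher and 16 lower (3.62%, against 0.963% of all genes tested), with a median log2 fold change of -0.09. On chromosome 19, where many lie in clusters, 12 of 224 were called lower (5.36%), the median was -0.19 and 166 values lay below 0. Elsewhere 4 of 218 were called lower, with a median of -0.05. The other 748 tested genes of chromosome 19 had 6 higher and 2 lower calls and a median of 0.07. Between 2 and 50 CPM on average, 14 of 365 ZNF genes were called lower (3.84%), against 59 of 6805 other genes (0.867%). Members of a cluster share sequence, and reads can be split between near copies.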
